A study of Mus musculus with 12 samples.

Results

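The genes described here are 37 interferon-response genes, listed by symbol and looked up in a table of 14219 genes measured in mouse bone marrow plasma cells. The table holds 36 of them, and Ifi44 had no row. Values are CPM (reads of a gene scaled to a common library total) in 12 libraries, 3 in each of 4 groups. All groups are plasma cells from the bone marrow of C57BL/6 mice with the genotype BLTcre.mcl1fl/+. The inherited floxed allele of Mcl1 (a survival gene of the Bcl2 family) and exposure to tamoxifen were thus shared by every group. Tamoxifen turned on a human CD4 reporter. Human CD4+ cells are called marked and human CD4- cells unmarked below, and each population was sorted 60 or 270 days after tamoxifen. Whether the Cre also acted on the floxed Mcl1 allele in marked cells was not tested. Such a change cannot be told apart from marking. The promoter that drives the Cre and the age of the mice are not stated in the labels. Each specimen number in the labels covers a marked and an unmarked library of the same day, but the labels do not say that specimens are separate animals, so p-values measure the spread between these libraries, which may be technical.

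Type I interferon binds the receptor chains Ifnar1 and Ifnar2, and the kinases Jak1 and Tyk2 then act on Stat2 and other factors. Stat2 and Irf9 are part of a complex that binds the interferon-stimulated response element in promoters and switches on antiviral genes. Interferon gamma acts through its own receptor. Plasma cells arise from B cells, and type I interferon is known to promote that differentiation during viral infection. The table held 0 of 7 interferon ligand genes looked for.

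The element is shown for Isg15, Ifit1, Rsad2, Stat2 and Gbp2, which are named in the results and whose promoters hold it. It was searched as GAAA, any pair of bases, then GAAA, on both strands of the 250 bases before each start site in RefSeq (GRCm38.p6). RefSeq sequences matched 29 of the 36 members, and 13 of these 29 (44.8%) had a match, against 3.46% of 27025 genes in the RefSeq table. Samhd1, Trim25, Eif2ak2, Ifih1 and Sp100, also named in the results, were among those of the 29 without a match. Capitals mark every match. The stretches read 5′ to 3′ on the strand of the gene:
Isg15 (chr4:156200850-156200921, minus strand): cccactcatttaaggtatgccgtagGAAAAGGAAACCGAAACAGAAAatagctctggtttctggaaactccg
Ifit1 (chr19:34640760-34640838, plus strand): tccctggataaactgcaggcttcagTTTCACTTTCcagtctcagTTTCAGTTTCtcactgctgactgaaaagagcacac
Rsad2 (chr12:26456538-26456597, minus strand): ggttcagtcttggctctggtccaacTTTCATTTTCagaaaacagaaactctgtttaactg
Stat2 (chr10:128270251-128270310, plus strand): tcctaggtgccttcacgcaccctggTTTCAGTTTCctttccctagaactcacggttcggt
Gbp2 (chr3:142620594-142620623, plus strand): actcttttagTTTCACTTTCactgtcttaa

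Isg15 had 3 overlapping matches, the first beginning 78 bases before the start, and Ifit1 had 2. The Gbp2 stretch is shorter because it meets an exon of Gbp2 in another annotation (GENCODE M21). That annotation starts Gbp2 at base 142620602, so the match lies after that start, though before the RefSeq one. A second motif, TTCNNNGAA, known as the gamma-activated sequence, reads the same on both strands and may overlap the first; 8 of the 29 members (27.6%) and 8.13% of all genes in the RefSeq table held it, Samhd1, Irf1 and Eif2ak2 among the members. A match is a description of these letters. Members with the response element ranged from Bst2, at a mean of 150 CPM over the 12 libraries, to Oas1a, at 0.311 CPM.

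The libraries held 7449468 to 15943547 reads on the genes of the table. Features typed as ribosomal RNA took 0.171% to 3.30% of the reads in 11 libraries and 16.8% in day 270 marked replicate 2, and day 270 marked replicates 2 and 3 stood lowest in genes detected, with 11022 and 11301. The 10 plasma cell markers (Sdc1, Prdm1, Jchain and others) were all in the table and summed to 90718 to 326603 CPM per library. Jchain held most of that sum, at 79037 to 312679 CPM. Summed markers of B cells (10 of 10 in the table) were 1784 to 2098 and 2005 to 2109 CPM in unmarked cells of day 60 and day 270, and 1322 to 1439 and 1177 to 1474 CPM in marked cells. Cd79a (757 to 983 CPM in unmarked and 243 to 449 in marked libraries) and Cd79b (727 to 774 and 561 to 811) held most of that sum. Monocyte and macrophage markers (13 of 13) summed to 106 to 322 CPM in day 60 unmarked, 148 to 262 in day 60 marked, 170 to 360 in day 270 unmarked and 270 to 680 in day 270 marked libraries. Erythroid markers (7 of 9) summed to 37.9 to 61.6 CPM in day 60 unmarked and 107 to 343 in day 60 marked libraries, and to 27.9 to 161 and 170 to 786 CPM in those of day 270, so they were higher in every marked library of a day. Neutrophil markers (13 of 13) ranged from 1.78 CPM in day 60 marked replicate 1 to 831 CPM in day 60 marked replicate 2. In bulk RNA, fewer cells of a type and less RNA per cell cannot be told apart.

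Constitutive levels differed widely between the members. Per kilobase of exon, Bst2 (tetherin, which holds budding virions at the cell surface) was highest, at 167 CPM per kb, followed by Ifi27 at 45.9, Ifitm3, a membrane protein that blocks viral fusion, at 34.3, and Zbp1, a sensor of Z-form nucleic acids, at 34.1. The last 2 differed by less than their spread over libraries (coefficients of variation 22.7% and 19.5%). Samhd1 had the most reads, at 172 CPM, but its transcript models are long and it stood at 18.9 CPM per kb. Isg15, a ubiquitin-like modifier and a common marker of interferon exposure, had 13.8 CPM per kb. At the other end, Ifit1, Usp18, Mx1, Ifit3, Oas1a, Oasl2 and Ifit2, most of them genes that rise steeply under interferon in many cells, were each under 1 CPM on average (0.0339 to 0.326 CPM per kb).

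**Figure D1:**
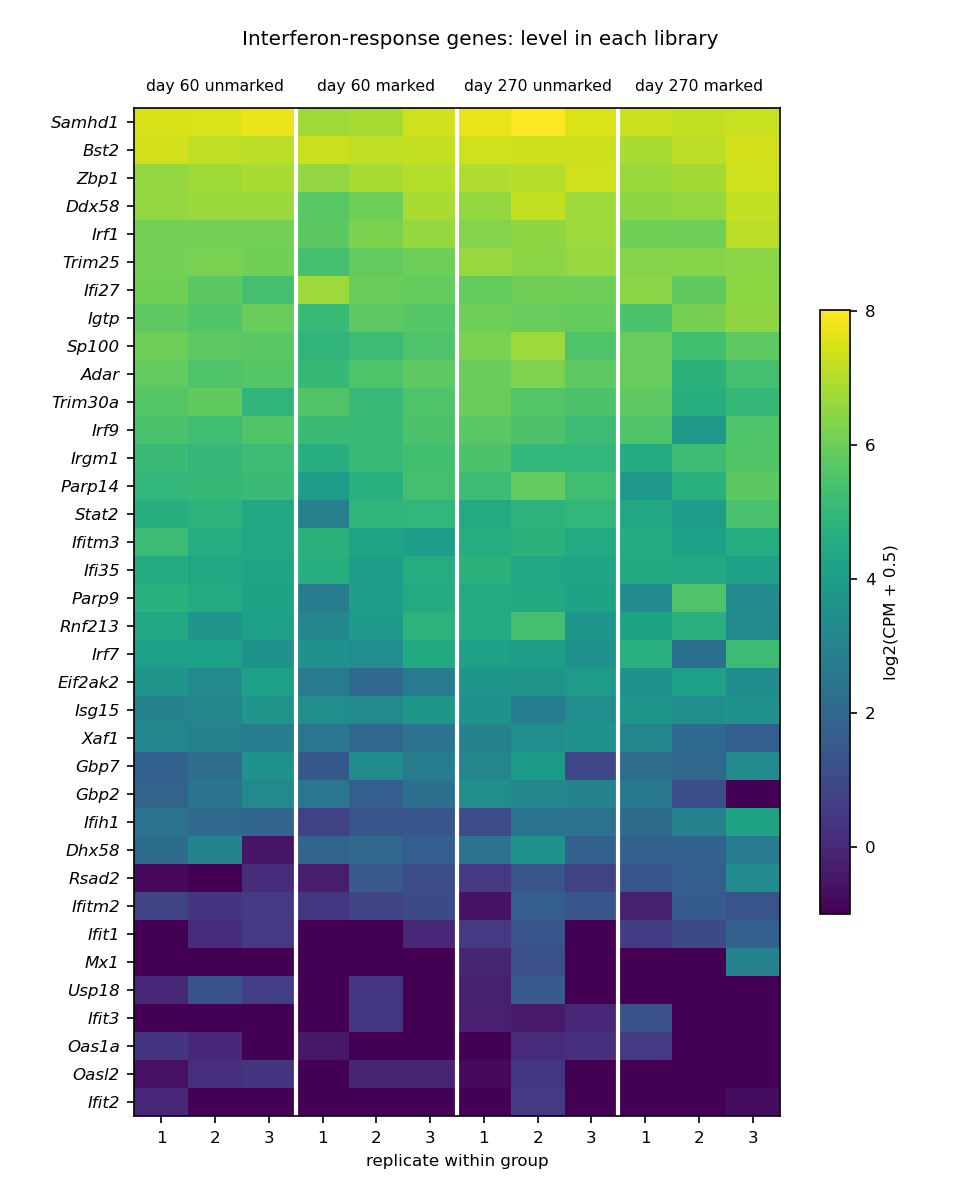
Level of each of the 36 members (rows, ordered by mean CPM) in each of the 12 libraries (columns, by group and replicate), as log2(CPM + 0.5). Samhd1 and Bst2 head the list at means of 172 and 150 CPM, and the 7 rows at the bottom, from Ifit1 down, are under 1 CPM on average.

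Testing kept genes with enough reads (at least about 10 in 3 libraries), which left 12704 genes and 31 of the 36 members. Mx1, Ifit2, Ifit3, Oas1a and Oasl2 did not pass and have no test. Called below means an adjusted p (Benjamini-Hochberg, over all 12704 genes) under 0.05 in limma on log2(CPM + 0.5). Fold changes below are on that scale, which understates the change of low genes, with the standard error. Scaling by total reads, used here, set the median of all genes 0.12 lower (log2) in marked against unmarked cells at each day than TMM scaling did, and 0.10 and 0.11 higher at day 270 than at day 60 in marked and unmarked cells, so the medians of all genes are given with each comparison.

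Samhd1 was the 1 member called in any of 8 comparisons: it fell in marked cells when both days were averaged. Samhd1 encodes the enzyme that breaks down deoxynucleotides and so limits viral DNA synthesis (ENSMUSG00000027639, GRCm38 chromosome 2, 157097533 to 157135265, minus strand). Unmarked libraries of day 60 had 175, 183 and 214 CPM and those of day 270 had 213, 259 and 188. Marked libraries had 106, 115 and 164 CPM at day 60 and 156, 145 and 152 at day 270. All 6 marked libraries lay under all 6 unmarked ones, from 106 to 164 against 175 to 259 CPM. The averaged log2 fold change was -0.56 ± 0.13 (adjusted p 0.0315), beside a median of -0.18 over all genes.

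The call rested on small margins. With edgeR on recovered reads the adjusted p was 0.0561, and it was 0.0679, 0.0773 and 0.109 without day 60 unmarked replicates 1, 2 and 3. It was 0.0885 and 0.0979 without day 60 marked replicates 1 and 2, and 0.0918 and 0.120 without day 270 unmarked replicates 1 and 2. Within single days Samhd1 had log2 fold changes of -0.59 ± 0.18 at day 60 and -0.53 ± 0.18 at day 270 and did not pass (adjusted p 0.397 and 0.220). Summed B cell markers were also lower, and erythroid markers higher, in the marked libraries of each day, by the ranges given above. Of the 10 B cell markers, 2 at day 60 and 3 at day 270 went the other way by fold change. Of 6 tested erythroid markers, 1 at day 60 and 0 at day 270 went the other way. Their part in the Samhd1 result was not tested.

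In that averaged comparison 1 of 31 members (Samhd1) was called by limma, 0 higher and 1 lower, against 1.84% of all genes (0.338% higher and 1.5% lower); edgeR called 0 and DESeq2 1. At an unadjusted p under 0.05 there were 8 members, 7 of them lower and 1 (Rsad2) higher, against 14.2% and 2.68% of all genes. Members without overlap between the 6 marked and 6 unmarked libraries numbered 1, again Samhd1, against 1.85% of all genes lower and 0.276% higher. The members' median was -0.25 beside -0.18 for all genes, and 24 of 31 were negative beside 70.4% of all genes. With TMM scaling 16 of 31 were negative and the medians were -0.12 and -0.06.

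**Figure D2:**
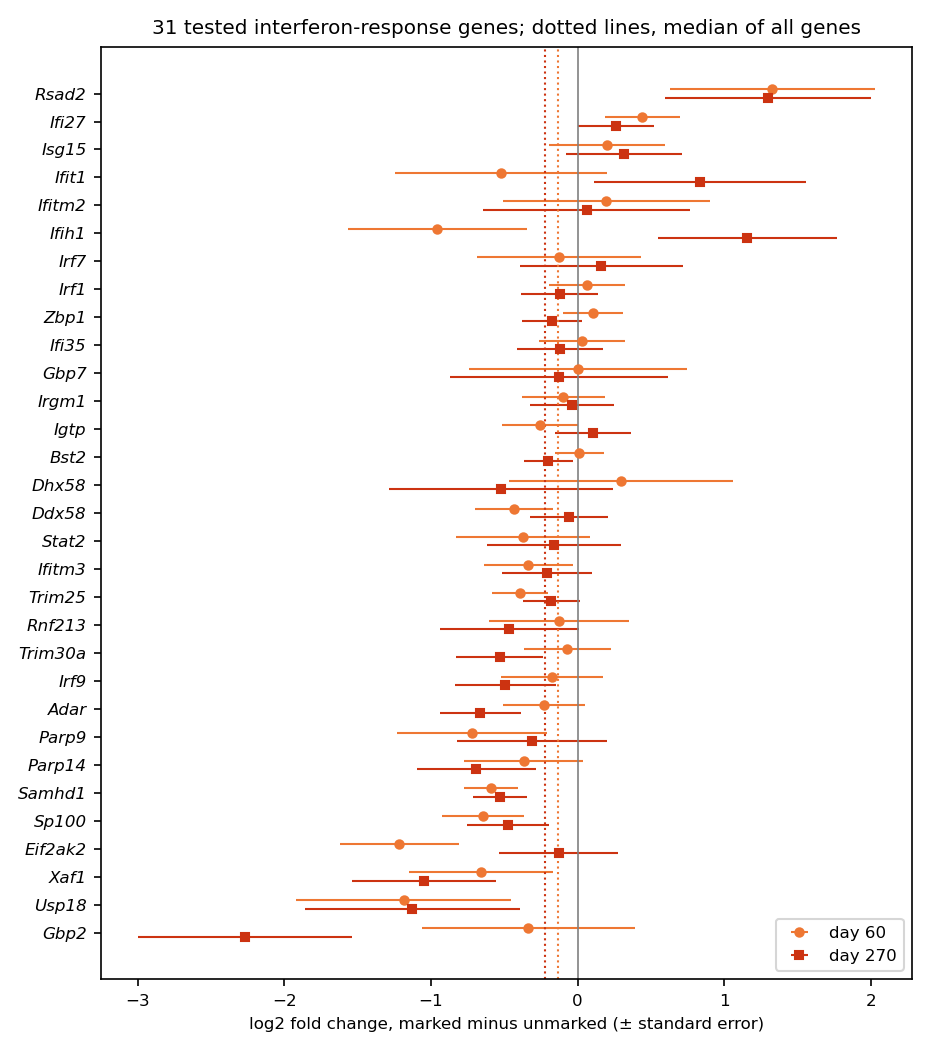
Log2 fold change of marked against unmarked cells for the 31 tested members at day 60 (circles) and day 270 (squares), with the standard error from limma. Dotted lines are the medians of all 12704 genes, -0.13 at day 60 and -0.22 at day 270. Rsad2 is at the positive end at both days, and Samhd1, Sp100, Xaf1 and Usp18 are negative at both.

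At day 60, limma called 0 of 31 members between marked and unmarked cells, as did edgeR and DESeq2, against 0.189% of all genes. Groups did not overlap for 6 members, all lower in marked cells (Samhd1, Eif2ak2, Sp100, Trim25, Ifih1 and Xaf1), and 11.3% of all genes were lower in this way. The members' median log2 fold change was -0.23 beside -0.13 for all genes, and 21 of 31 were negative beside 63.9% of all genes. Eif2ak2 is the kinase PKR, which stops translation on binding double-stranded RNA. It had 12.3, 9.10 and 17.3 CPM in unmarked libraries and 5.99, 3.69 and 5.90 in marked ones, so that every marked library was below every unmarked one (-1.22 ± 0.41, adjusted p 0.479). It is given here after its values were seen. Sp100, a component of nuclear bodies, had 64.3, 54.9 and 52.4 CPM in unmarked and 29.0, 36.0 and 45.6 in marked libraries (-0.64 ± 0.28, adjusted p 0.710). At an unadjusted p under 0.05 there were 3 members, these 2 and Samhd1, all lower, against 5.05% of all genes. In the authors' deposited table of this comparison 0 members had an FDR under 0.05, and the lowest was 0.357.

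At day 270, limma, edgeR and DESeq2 each called 0 of 31 members between marked and unmarked cells, against 0.480% of all genes by limma. Gbp2, an interferon-inducible GTPase of the guanylate-binding family (ENSMUSG00000028270, chromosome 3, 142620602 to 142638008, plus strand), had the smallest p. Unmarked libraries had 10.5, 8.37 and 7.67 CPM, and marked ones had 5.83, 1.75 and 0. The groups did not overlap, and the lowest marked library, replicate 3, had 0 reads, which allows up to 0.325 CPM by counting error alone. The log2 fold change was -2.27 ± 0.73 (adjusted p 0.194). Without day 270 marked replicate 1 it was -3.13 and called (limma, adjusted p 0.0198). Without replicates 2 and 3, the libraries with the fewest detected genes, it was -0.55, with replicate 1 alone left for those marked cells. At day 60 Gbp2 had 3.16, 4.98 and 9.08 CPM in unmarked and 5.34, 2.85 and 4.38 in marked libraries, and these groups overlapped.

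Samhd1 and Gbp2 were the members without overlap that were lower in marked cells at day 270, against 12% of all genes, and Rsad2 the 1 that was higher, against 3.28%. At an unadjusted p under 0.05 there were 4 members, all lower, against 11.9% of all genes. Besides Samhd1 and Gbp2, Adar, which edits adenosine to inosine in double-stranded RNA, had -0.66 ± 0.28 (adjusted p 0.300). Xaf1, named for its binding to an inhibitor of apoptosis, had -1.05 ± 0.49 (adjusted p 0.352). Without day 270 marked replicates 2 and 3, the libraries with the fewest detected genes, Adar was at -0.09 and Xaf1 at -0.22. Replicate 1 alone then stood for the marked cells of day 270. The median of the members was -0.18 beside -0.22 for all genes, and 23 of 31 were negative beside 69.2%.

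Rsad2 had the largest positive fold change of the 31 members between marked and unmarked cells, at day 60, at day 270 and in the average. It encodes viperin, an enzyme that makes a chain-terminating nucleotide (ENSMUSG00000020641, chromosome 12, 26442746 to 26456452, minus strand), and its promoter stretch is printed above. It rested on few reads. Day 60 unmarked libraries had 1, 0 and 9 reads (0.0880, 0 and 0.619 CPM) and day 60 marked ones 4, 20 and 19 (0.324, 2.38 and 1.70 CPM). Day 270 unmarked libraries had 10, 21 and 16 reads (0.921, 2.02 and 1.19 CPM), and day 270 marked ones 35, 21 and 89 (2.19, 2.82 and 9.63 CPM). Every marked library was above its unmarked partner of the same specimen, and every day 270 marked library was above all unmarked ones.

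Between day 270 marked and day 60 unmarked cells, where marking and day cannot be told apart, Rsad2 had a log2 fold change of 2.70 ± 0.70 and missed the threshold (adjusted p 0.0621). It was called with TMM scaling (2.71, adjusted p 0.0430), with DESeq2 size factors (2.73, adjusted p 0.0408), in DESeq2 (4.30, adjusted p 0.00985) and without day 270 marked replicate 1 (3.07, adjusted p 0.0320). Averaged over days, marked against unmarked, it was 1.31 ± 0.50 (adjusted p 0.198). In day 270 marked against day 60 unmarked cells, limma called 0 of 31 members, against 1.54% of all genes. There edgeR called 0 members and DESeq2 1. At an unadjusted p under 0.05 in limma, 1 member (Rsad2) was higher and 2 were lower, against 5.27% and 9.10% of all genes. Of the 31, 17 were negative beside 59.5% of all genes, and the medians were -0.02 and -0.11. Groups did not overlap for Rsad2, Trim25 and Ifit1, which were higher, and for Samhd1 and Usp18, which were lower, against 6.56% and 9.44% of all genes. The monocyte and macrophage markers named above were highest in day 270 marked replicate 3, at 680 CPM, where Rsad2 was also highest. That library was the highest of the 12 for 24.0% of all genes. Of the 13 markers 8 were highest of the 12 libraries there, the complement genes C1qa (89.3 CPM), C1qb (68.4 CPM) and C1qc (72.8 CPM) and Lyz2 (174 CPM) among them, and 2, Cd14 and Cx3cr1, had 0 reads there. The next highest sums of these markers were 388 CPM in day 270 marked replicate 2 and 360 CPM in day 270 unmarked replicate 2. Rsad2 had 2.82 and 2.02 CPM in those libraries. Day 60 unmarked replicate 1 followed, with 322 CPM of the markers and Rsad2 at 0.0880 CPM. The part of these markers in the Rsad2 values was not tested.

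**Figure D3:**
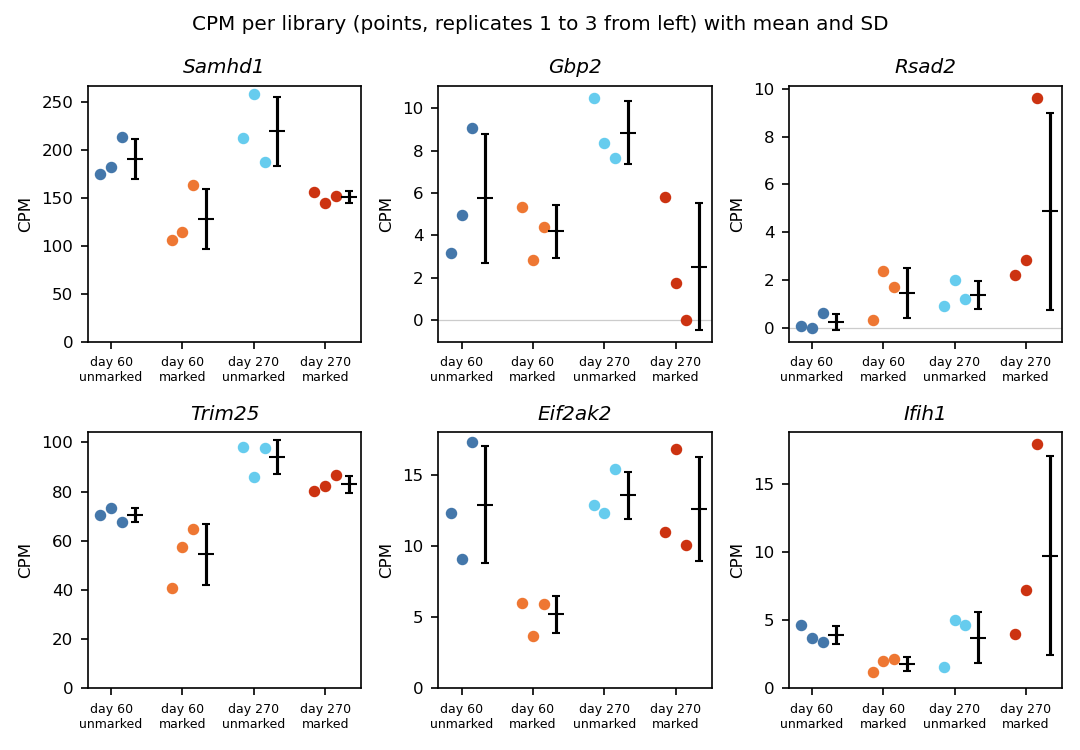
CPM of 6 members in each library, by group, with points for replicates 1 to 3 from left to right and the mean with its SD at the right of each group (n = 3). Samhd1 is lower in every marked library than in every unmarked one, Trim25 is higher in every day 270 library than in every day 60 one, and 1 library of day 270 marked cells stands above the others for Rsad2 and Ifih1.

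Between the days, limma called 0 of 31 members in marked cells, against 0.0315% of all genes, and 0 in unmarked cells, where 0% of all genes were called. With both populations averaged it called 0, against 0.189%. edgeR and DESeq2 also called 0 members in each of these 3 comparisons. At an unadjusted p under 0.05 there were 5 members in marked cells, 1 in unmarked cells and 4 in the average, all higher at day 270, against 5.44%, 2.65% and 6.59% of all genes. Negative members numbered 9, 5 and 6 of 31, beside 48.0%, 33.6% and 41.0% of all genes, and with TMM scaling they numbered 13, 11 and 12. The members' medians were 0.13, 0.20 and 0.21, beside 0.02, 0.12 and 0.07 for all genes. With TMM scaling the averaged median was 0.11 beside -0.04. Some marker lists of other cells were higher at day 270 as well. In marked cells 7 of 13 monocyte and macrophage markers (median 1.38) were higher at an unadjusted p under 0.05. So were 3 of 7 plasmacytoid dendritic cell markers (median 0.74, Siglech not tested), and limma called 0 of either list. In unmarked cells those lists had 2 of 13 (median 0.90) and 3 of 7 (median 0.29). Other lists in marked cells had 0 of 12 neutrophil (median 1.13) and 0 of 6 erythroid markers (median 1.12) higher at that p. Megakaryocyte and platelet markers had 0 of 4, stroma and endothelium 0 of 3, and T and NK cells 1 of 6. B cell markers had 2 of 10 higher and 1 lower. Their part in the members' values was not tested.

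Trim25 had the smallest p among the members in each of the 3. It is a ubiquitin ligase that acts on the RNA sensor RIG-I (ENSMUSG00000000275, chromosome 11, 88999376 to 89020293, plus strand). Day 60 libraries had 70.4, 73.3 and 67.5 CPM in unmarked and 40.9, 57.6 and 64.9 CPM in marked cells. Day 270 libraries had 98.3, 86.0 and 97.9 CPM in unmarked and 80.1, 82.2 and 86.6 CPM in marked cells. All 6 libraries of day 270 were above all 6 of day 60. The log2 fold change was 0.63 ± 0.19 in marked cells (adjusted p 0.320), 0.41 ± 0.19 in unmarked cells (adjusted p 1) and 0.52 ± 0.14 averaged (adjusted p 0.161). Trim25 was the 1 member without overlap in the average, against 0.512% of all genes higher.

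In marked cells 4 members did not overlap between the days, Trim25, Ifih1, Eif2ak2 and Ifit1, all higher at day 270, against 6.47% of all genes. Against the day 60 marked values given above, Eif2ak2 had 10.98, 16.8 and 10.1 CPM at day 270 (1.20 ± 0.41, adjusted p 0.369). Ifit1, which binds foreign RNA, had 0, 0 and 0.536 CPM in day 60 marked and 1.004, 1.48 and 2.92 CPM in day 270 marked libraries (1.76 ± 0.73, adjusted p 0.456). Unmarked libraries had 0, 0.601 and 0.895 CPM of Ifit1 at day 60 and 0.921, 2.02 and 0 at day 270, and these overlapped. In unmarked cells Rsad2, Trim25, Zbp1, Irf1 and Parp14 did not overlap and were higher at day 270, against 10.4% of all genes. Zbp1 had 93.3, 105 and 116 CPM at day 60 and 124, 128 and 164 CPM at day 270 there.

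Among the RNA sensors, the values of Ifih1 lay in opposite directions at day 60 and day 270. Ifih1 encodes MDA5, a sensor of long double-stranded RNA (ENSMUSG00000026896, chromosome 2, 62595798 to 62646255, minus strand). At day 60 it had 4.65, 3.69 and 3.37 CPM in unmarked and 1.21, 2.02 and 2.15 CPM in marked libraries, without overlap. At day 270 it had 1.56, 5.00 and 4.62 CPM in unmarked and 4.01, 7.25 and 18.0 CPM in marked libraries, with overlap. Each marked library was below its specimen partner at day 60 and above it at day 270. The test of that difference between the days gave 2.11 ± 0.86 and did not pass (limma, p 0.0246, adjusted p 0.99997), and limma and edgeR called 0 members there, as did DESeq2, against 0% of all genes by limma. Ifih1 was the 1 member at an unadjusted p under 0.05, against 0.889% of all genes in that direction, and 16 of 31 members were negative beside 58.2%, with medians of -0.03 and -0.09. In marked cells between days Ifih1 had 1.94 ± 0.61 (adjusted p 0.320).

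Ddx58, which encodes RIG-I, had 93.6, 101 and 100 CPM in day 60 unmarked, 50.6, 65.0 and 116 in day 60 marked, 95.6, 145 and 103 in day 270 unmarked and 89.3, 96.7 and 147 in day 270 marked libraries, and all groups overlapped between marked and unmarked. Marked cells of day 60 and day 270 had Zbp1 at 94.0, 117 and 129 and at 100, 110 and 163 CPM, overlapping the unmarked libraries of the same day. Each marked library was above its specimen partner for Zbp1 at day 60 and below it at day 270; the test of that difference gave -0.28 ± 0.29 (limma, adjusted p 0.99997). Dhx58 (LGP2, a regulator of the other sensors) was low, with 0.206 to 11.8 CPM over the 12 libraries.

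The 4 transcription factors among the members, Stat2, Irf7, Irf9 and Irf1, overlapped between marked and unmarked cells at each day. Stat2, which works with Irf9 in the response complex, had 24.7, 28.1 and 20.6 CPM in day 60 unmarked and 7.12, 29.0 and 30.7 CPM in day 60 marked libraries. At day 270 Stat2 had 22.5, 28.1 and 30.5 CPM in unmarked and 20.7, 15.6 and 42.1 CPM in marked cells. In Stat2 the lowest of the 12 was day 60 marked replicate 1 and the highest day 270 marked replicate 3. Irf7, which drives interferon genes themselves, had 16.7, 16.9 and 11.7 CPM in day 60 unmarked and 11.3, 10.1 and 21.8 CPM in day 60 marked libraries. At day 270 Irf7 had 17.2, 15.6 and 11.3 CPM in unmarked and 26.2, 4.43 and 35.5 CPM in marked libraries. Its marked libraries of day 270 thus spanned both the lowest and the highest of the 12.

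Irf9 had 43.5, 37.3 and 46.7 CPM in day 60 unmarked, 34.7, 33.4 and 45.3 in day 60 marked, 52.5, 45.1 and 36.2 in day 270 unmarked and 45.5, 14.4 and 46.1 in day 270 marked libraries. The low value belonged to day 270 marked replicate 2, the library with the most reads on ribosomal RNA features. Irf1, a factor induced by interferon gamma, had 70.1, 68.9 and 69.1 CPM in day 60 unmarked and 52.7, 75.5 and 95.9 CPM in day 60 marked libraries. At day 270 Irf1 had 81.3, 92.0 and 103 CPM in unmarked and 68.4, 65.1 and 134 CPM in marked cells. Unmarked libraries of a day were closer together than marked ones for Irf1.

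Bst2 varied least. It had 171, 141 and 134 CPM in day 60 unmarked and 156, 143 and 147 CPM in day 60 marked libraries. At day 270 Bst2 had 163, 160 and 162 CPM in unmarked and 118, 139 and 170 CPM in marked cells, and its coefficient of variation over the 12 libraries, 10.7%, was the smallest of the members. Bst2 also marks plasmacytoid dendritic cells. Of 9 other markers of these cells 8 were in the table, and they summed to 715 to 1303 CPM in day 60 unmarked, 982 to 1150 in day 60 marked, 1301 to 1576 in day 270 unmarked and 1452 to 1683 in day 270 marked libraries. Ly6d held most of that sum, at 423 to 1349 CPM over the 12 libraries, and Tcf4 had 120 to 286 CPM, while Siglech had 0 reads in 8 of 12 libraries and at most 1.88 CPM. The part of these cells in the Bst2 values was not tested. Isg15 had 7.72, 8.24 and 12.5 CPM in day 60 unmarked and 10.4, 8.92 and 13.2 CPM in day 60 marked libraries. At day 270 Isg15 had 11.8, 6.74 and 10.2 CPM in unmarked and 13.0, 10.9 and 11.5 CPM in marked cells. Each marked library was above its specimen partner for Isg15, although the groups overlapped at both days.

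Ifi27 had 68.7, 53.5 and 40.3 CPM in day 60 unmarked, 104, 61.3 and 58.9 in day 60 marked, 58.0, 66.4 and 65.3 in day 270 unmarked and 87.4, 56.5 and 88.3 in day 270 marked libraries, and overlapped at both days. Igtp, an immunity-related GTPase that acts on parasite vacuoles, had 54.0, 46.9 and 62.1 CPM in day 60 unmarked, 34.1, 53.9 and 49.8 in day 60 marked, 64.8, 60.2 and 58.5 in day 270 unmarked and 43.7, 70.9 and 91.8 in day 270 marked libraries. Marked libraries again enclosed the unmarked ones at day 270. Adar had 57.7, 46.0 and 49.7 CPM in day 60 unmarked and 32.4, 46.0 and 54.9 CPM in day 60 marked libraries. At day 270 Adar had 63.0, 77.1 and 55.2 CPM in unmarked and 60.6, 27.0 and 40.7 CPM in marked cells.

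Trim30a, a TRIM protein that dampens inflammatory signalling, had 49.6, 55.9 and 29.7 CPM in day 60 unmarked, 46.8, 33.2 and 45.7 in day 60 marked, 61.0, 48.2 and 45.3 in day 270 unmarked and 54.1, 25.5 and 31.6 in day 270 marked libraries. Sp100 at day 270 had 73.0, 103 and 45.4 CPM in unmarked and 60.8, 38.4 and 53.9 CPM in marked cells, with overlap. Averaged over days, marked against unmarked, Sp100 had -0.56 ± 0.20 (adjusted p 0.170). Further members at an unadjusted p under 0.05 in that average were Xaf1 at -0.85 ± 0.35 (adjusted p 0.229), Gbp2 at -1.30 ± 0.51 (adjusted p 0.214; 0.0446 without day 270 marked replicate 1) and Eif2ak2 at -0.67 ± 0.29 (adjusted p 0.247). Adar at -0.45 ± 0.20 (adjusted p 0.264) and Usp18 at -1.16 ± 0.52 (adjusted p 0.269) complete them, with Rsad2. None of these passed.

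Usp18, which removes Isg15 from proteins and restrains the type I receptor, was read in 6 of 12 libraries. It had 0.527, 1.89 and 1.10 CPM in day 60 unmarked, 0, 0.833 and 0 in day 60 marked and 0.368, 2.502 and 0 in day 270 unmarked libraries. All 3 day 270 marked libraries had 0 reads, which allows up to 0.188, 0.403 and 0.325 CPM in them. Ifitm2 had 0.184 to 2.79 CPM over the 12 libraries, far below Ifitm3 at 16.3 to 35.8 CPM. The remaining tested members were Irgm1, Parp14, Ifi35, Parp9, Rnf213 and Gbp7, with means of 6.59 to 34.4 CPM, and they overlapped between marked and unmarked cells at each day.

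Mx1, an antiviral GTPase whose allele in C57BL/6 mice is known to be defective, had 0 reads in 9 libraries, all 6 of day 60 among them. It had 5 and 19 reads in day 270 unmarked replicates 1 and 2 (0.460 and 1.83 CPM) and 69 reads in day 270 marked replicate 3 (7.47 CPM). So 69 of its 93 reads lay in 1 library. Ifit3 had 51 reads in 5 libraries, of which 30 were in day 270 marked replicate 1, and Oas1a, an oligoadenylate synthetase, had 48 in 6. Oasl2 had 41 reads in 7 libraries and Ifit2 had 17 in 3. Ifit3 and Oas1a have close paralogs, and how reads shared with them were counted is not given in the sources used here.

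Extremes of the 31 tested members were uneven between groups and within them. By replicate, 5, 9 and 2 were highest in day 270 unmarked and 0, 1 and 9 in day 270 marked libraries. Day 60 unmarked libraries held 2, 0 and 1 highest values and day 60 marked ones 1, 0 and 1. Of all genes, 2.70% to 6.42% were highest in a given day 60 library and 6.59% to 24.0% in a day 270 one. Lowest values numbered 11, 2 and 1 in day 60 marked and 3, 4 and 2 in day 270 marked libraries. Unmarked ones held 2, 1 and 2 at day 60 and 1 each at day 270. Day 270 marked replicate 3 was the highest of the 12 libraries for 9 of 31 members (29.0%), against 24.0% of all genes, and day 270 unmarked replicate 2 for another 9, against 16.6%. Day 60 marked replicate 1 was the lowest for 11 (35.5%), against 16.5% of all genes. The median deviation of the members from their mean over libraries was -0.59 (log2) in day 60 marked replicate 1, where that of all genes was -0.21. In day 270 marked replicate 2 the members stood at -0.21 and all genes at -0.37.

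**Figure D4:**
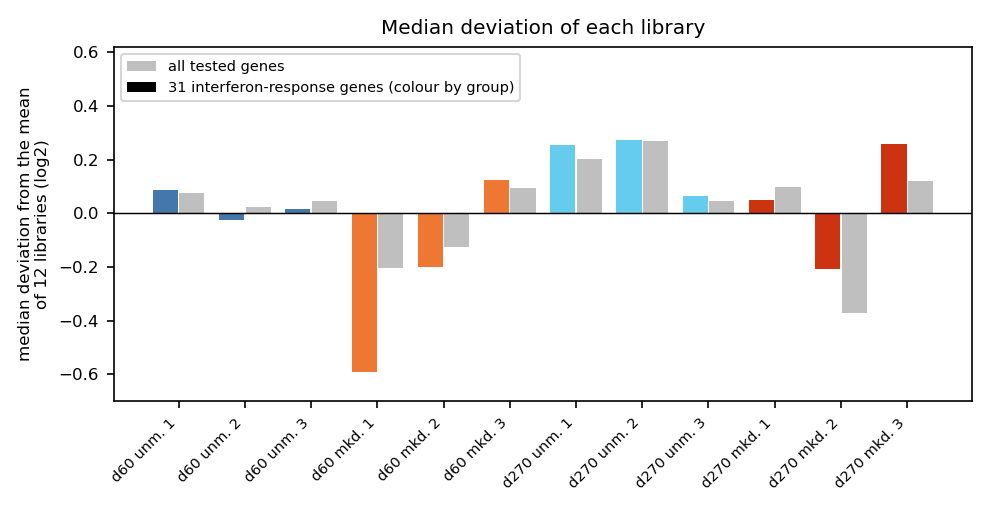
Median deviation (log2) of each library from the mean of the 12 libraries, for the 31 tested members (bars coloured by group) and for all 12704 tested genes (grey). The lowest member bar, -0.59, is day 60 marked replicate 1, and the highest, 0.27, is day 270 unmarked replicate 2.

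Among the other genes of the pathway, a list of 43 ligand, receptor and signalling symbols had 32 genes in the table and 30 tested. Of these, 1 was called lower in marked cells in the average over days, where 1.5% of all genes were, and 0 in the other 7 comparisons by limma. It was Jak1, the kinase of both interferon receptors, with 65.997, 84.6 and 102 CPM in day 60 unmarked and 45.9, 63.5 and 85.1 CPM in day 60 marked libraries. At day 270 Jak1 had 100, 118 and 85.1 CPM in unmarked and 54.1, 43.1 and 53.5 CPM in marked libraries, without overlap. The averaged log2 fold change was -0.70 ± 0.17 (adjusted p 0.0393), and that of day 270 alone was -0.995 ± 0.24 (adjusted p 0.0692, and 0.0427 with TMM scaling). The averaged call ended without any of day 60 unmarked replicates 2 and 3, day 60 marked replicates 1 and 2 and day 270 unmarked replicates 1, 2 and 3 (adjusted p 0.0523 to 0.135).

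Of a second list of 84 further induced genes, 71 were in the table and 66 tested. Again 1 was called lower in marked cells in the average, a count at the background of 1.5% of all genes, and 0 in the other 7 comparisons by limma. Sp140, a nuclear body protein related to Sp100, had 74.7, 70.5 and 71.6 CPM in day 60 unmarked and 52.7, 47.7 and 57.3 CPM in day 60 marked libraries. At day 270 Sp140 had 81.7, 87.1 and 98.2 CPM in unmarked and 49.2, 62.6 and 62.5 CPM in marked libraries, so that no marked library reached an unmarked one. Its log2 fold change was -0.54 ± 0.13 (adjusted p 0.0436), and with TMM scaling it was -0.41 and not called (adjusted p 0.136). It was not called in edgeR (adjusted p 0.169) or DESeq2 (adjusted p 0.126) either. The adjusted p lay at 0.0502 to 0.121 without any 1 of the 3 day 60 unmarked, the 3 day 60 marked, the 3 day 270 unmarked libraries or day 270 marked replicate 1. In the average over days the medians of the lists were -0.24 for signalling and -0.25 for further induced genes, beside -0.18 for all genes. Ly6e had an FDR of 0.00513 and a log2 fold change of 0.42 in the authors' deposited table of day 270 marked against day 60 unmarked cells; in limma here its adjusted p was 0.328.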

How the data were processed

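Per the labels' protocols, a column kit for small samples yielded the RNA and a TruSeq RNA kit the libraries. GRCm38 and limma are named, without a role, per the submitters' processing notes; which aligner, counter and annotation were used was not given in the sources used here. Deposited by the authors were CPM for 14219 genes in 12 libraries, with log2 fold changes, p-values and FDR, a second such table of 265 genes that holds 0 members, and a table of counts for 230 genes, 1 of them a member (Samhd1). Multiplying the deposited CPM by 1 total per library gave whole reads: of 151342 values below 1000 reads, 100% came within 0.05 of an integer, and 100% of the values of the count table were matched.

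The test was limma 3.58.1 (R 4.3.3) on log2(CPM + 0.5) with a trended prior, 1 coefficient per group, all 12 libraries, 8 residual degrees of freedom and no block. filterByExpr of edgeR 4.0.16 (minimum count 10) on recovered reads kept 12704 genes. Benjamini-Hochberg adjustment ran over all of them in each of 8 comparisons. The members and lists were chosen with earlier results of these data known. Alternatives were DESeq2 1.42.0 and edgeR on recovered reads, other scalings, pseudocounts and filters, only the groups compared, a block, and leaving out libraries. The script was tested on simulated data. Values in every library were due for members called, the smallest p in each comparison without a call, the 12 members highest in mean CPM, and Stat2, Irf7, Irf9, Isg15, Ifit1 and Mx1. Of the other pathway genes, called ones were due (1 further item is not reported here), and Ly6e is named after its values were seen, as are members beyond this rule. Positions and exon lengths are from GENCODE M21 and promoters from RefSeq. The ± values are standard errors from limma, which come from the spread between libraries. Upper limits given for 0 reads cover counting error only.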

Additional observations from a re-analysis of the deposited data

How the results depend on the processing

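Counts of called members stayed at 0 under all 24 alternatives in 5 comparisons: marked against unmarked at day 60, day 270 against day 60 in marked cells, in unmarked cells and averaged, and the difference between days. For marked against unmarked averaged over days the count of 1 became 0 with edgeR, 0 without day 270 marked replicates 2 and 3 together and 0 without replicate 2 of both marked groups; without single libraries it ranged from 0 to 2. For day 270 marked against unmarked it was 0 to 1 without single libraries (1, Gbp2, without marked replicate 1). For day 270 marked against day 60 unmarked it was 1 (Rsad2) with TMM scaling, 1 with DESeq2 size factors and 1 in DESeq2, and 0 to 1 without single libraries. The cause was not tested. The 31 fold changes tracked here kept their sign. They are pairs of a gene and a comparison, with Jak1 and Sp140 included, and are not the 31 tested members. Most had an unadjusted p under 0.05 in the main limma fit, so a kept sign was likely beforehand. Of the tested members, 24 were negative in the averaged comparison and 16 with TMM scaling.

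Counts over all genes moved more. In the averaged comparison 234 genes were called, 204 with edgeR, 544 with DESeq2, 171 with a mean of at least 5 CPM required, and 101 to 469 without libraries. At day 60 the count was 24, with 18 to 119 under other settings and 3 to 103 without libraries; at day 270 it was 61, with 0 to 256 and 5 to 475. Between days it was 4 in marked cells (0 to 128, and 0 to 151 without libraries), 0 in unmarked cells (0 to 11, and 0 to 8) and 24 averaged (16 to 142, and 3 to 58). For day 270 marked against day 60 unmarked it was 196, with 7 to 573 and 40 to 573.

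The replicate block used the specimen number within a day and the replicate number between days. With it the averaged comparison again had 1 called member (Samhd1, adjusted p 0.0399) and 186 genes called; day 60 had 38 genes and day 270 had 44. It moved no count of members. Residuals of libraries with the same specimen number had a median correlation of 0.0556 (range -0.0109 to 0.115, 6 pairs), against -0.0194 for other pairs, and 9 of 12 libraries correlated best with their own number, so the pairing is a hint from the data. Members under 1 CPM are limited by depth, since 3 reads correspond to 0.188 to 0.403 CPM.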
